A study of Mus musculus with 30 samples.

Results

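Transcripts of the integrated stress response and of amino acid supply were measured in C2C12 myotubes that had been deprived of serum for 4 days with or without low doses of metformin and leucine. The set held 38 of the 55487 genes of the count table, chosen by name as targets and regulators of the transcription factor ATF4, enzymes of amino acid and one-carbon synthesis, and amino acid transporters. Of these, 36 passed the filter on low counts that 15907 genes passed in all, and Cbs and Slc7a3 did not. The set was chosen with earlier results of these data known. Its shares of changed genes beside those of all genes are therefore a description and not an independent test. C2C12 is a single mouse myoblast line whose cells fuse into multinucleated myotubes when serum is lowered. All cells were differentiated for 4 days in low glucose DMEM with 2% horse serum, a medium that itself supplies amino acids including leucine. They were then kept for 4 more days in the same medium with 2% horse serum (2% HS), without serum (SD), or without serum and with 100 nM metformin (MET), 500 nM leucine (LEU) or both (MET+LEU), so that RNA was taken 8 days after differentiation began. Each of the 5 groups had 6 replicates. The sources used here do not say whether these were separate cultures grown on separate days, so p-values measure the spread between these samples, which may be technical.

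The integrated stress response is a switch that cells use when amino acids, haem or protein folding capacity run short. Kinases such as GCN2, which senses uncharged tRNA, and PERK, which senses misfolded protein in the endoplasmic reticulum, phosphorylate the initiation factor eIF2, and general translation slows while the mRNA of Atf4 is translated more. ATF4 protein then switches on genes for making and importing amino acids, and mTORC1, the growth kinase that leucine helps to activate, also raises ATF4 in well-fed cells. Because much of this control acts on translation and phosphorylation, mRNA counts show the transcripts of the pathway and not its activity. In bulk RNA, fewer cells of a kind and less RNA per cell cannot be told apart.

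ATF4 and its C/EBP partners are known to bind a composite element whose core is TGATGNAA, or TTNCATCA when read on the other strand. RefSeq promoter windows of GRCm38.p6, from 250 bases before to 50 bases after each annotated start, were available for 33 of the 38 genes, and Slc7a5, Eif4ebp1, Cth, Slc7a3 and Slc1a5 had none. The core was found on either strand, as a match of letters only, in at least 1 window of 11 of the 33 genes (33.3%), compared with 1219 of 27025 genes in all (4.51%) and 1304 of 32851 promoter windows (3.97%). The genes were chosen in part as targets of ATF4, so this comparison is not an independent test. The matches of 9 genes are shown because these genes include stress effectors (Chac1, Fgf21, Vldlr), a stress factor (Atf3), 3 enzymes and a transporter of amino acid supply (Asns, Pck2, Pycr1, Slc7a11), and the gene that rose with MET+LEU (Nupr1). Capitals mark the matched letters, each sequence is written 5′ to 3′ on the strand of its gene, and all come from RefSeq on GRCm38.p6.
Chac1: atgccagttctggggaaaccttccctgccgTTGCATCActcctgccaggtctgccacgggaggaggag
Fgf21: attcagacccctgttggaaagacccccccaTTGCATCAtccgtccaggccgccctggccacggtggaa
Pck2: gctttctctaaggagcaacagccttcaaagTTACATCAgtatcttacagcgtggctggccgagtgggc
Pycr1: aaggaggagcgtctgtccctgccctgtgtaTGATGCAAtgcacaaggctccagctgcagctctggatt
Slc7a11: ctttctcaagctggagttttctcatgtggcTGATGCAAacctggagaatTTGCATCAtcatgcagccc
Atf3: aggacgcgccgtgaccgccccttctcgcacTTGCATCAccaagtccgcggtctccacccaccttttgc
Vldlr: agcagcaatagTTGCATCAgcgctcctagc
Asns: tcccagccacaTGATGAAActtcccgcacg
Nupr1: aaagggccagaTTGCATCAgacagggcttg

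The positions shown were chr2:119351019-119351086 (plus strand) for Chac1, chr7:45615592-45615659 (minus strand) for Fgf21, chr14:55540133-55540200 (plus strand) for Pck2, chr11:120643814-120643881 (minus strand) for Pycr1 and chr3:50443642-50443709 (minus strand) for Slc7a11, all upstream of the gene as GENCODE M21 annotates it. They were chr1:191183406-191183473 (minus strand) for Atf3, in an intron of the longer annotated gene, and chr19:27216809-27216838 (plus strand) for Vldlr, chr6:7693214-7693243 (minus strand) for Asns and chr7:126625562-126625591 (minus strand) for Nupr1, in exons of other annotated transcripts of these genes. The first matched base lay at -193 from the RefSeq start in Chac1, at -139 in Fgf21, at -103 in Pck2 and Pycr1, at -110 in Atf3 and Nupr1, at -200 in Vldlr and at -23 in Asns. Slc7a11 held 2 matches, at -66 and -47, on opposite strands, and both are in capitals. Trib3 and Slc1a4 had matches that began at 14 and at -4 and are not printed. A match says only that these letters occur in the window. By the test described below, 9 of 23 genes with a window that fell in SD vs. 2% HS had a match. So did 1 of 3 that rose and 1 of 6 that did not pass. In MET+LEU vs. SD the counts were 4 of 17 that fell, 1 of 1 that rose and 6 of 14 that did not pass. A link between matches and changes was not tested.

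Libraries held between 12784960 and 19604103 counts, and a count of 0 allows up to 3 counts in a library, a limit that covers counting error only. Levels are given as CPM, counts scaled to library size by edgeR's TMM method, for the lowest, the median and the highest of the 6 libraries of a group, in that order. Changes were tested with edgeR's quasi-likelihood test on all 30 libraries with Benjamini-Hochberg adjustment over the 15907 genes, and a gene was called changed at an adjusted p under 0.05. Each log2 fold change is followed by its standard error (SE) and adjusted p. All 10 myotube markers passed the filter, and their summed level lay between 29250 and 42290 CPM. MET+LEU replicate 6 stood apart. Mitochondrial ribosomal RNA took up 7.64% of its counts, and it was the lowest MET+LEU library for 21 of the 36 genes. SD replicate 2 was the highest SD library for 16 of the 36. Likewise, 2% HS replicate 6 was the lowest of its group for 16 and MET+LEU replicate 2 the highest of its group for 15. The share of mitochondrial ribosomal RNA also differed between the groups, with 0.219% to 0.306% in 2% HS, 0.281% to 0.367% in SD, 0.244% to 0.705% in MET, 0.501% to 0.71% in LEU and 0.649% to 0.76% in the other 5 MET+LEU libraries, and MET+LEU did not overlap SD in it. Its part in the differences from SD was not tested.

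Per length of all annotated exons of a gene merged, Atf4 had the highest level of the set in 2% HS, with 114 ± 3.76 RPKM (mean ± standard deviation, n = 6). Next came Slc38a2 with 62.8 ± 1.37 RPKM, Slc7a5 with 52.6 ± 1.74 RPKM and Atf5 with 50.5 ± 4.7 RPKM. The levels of Slc7a5 and Atf5 did not differ beyond their spread. Of the genes that passed the filter, Slc7a11 was lowest, with 0.314 ± 0.0491 RPKM. These ranks rest on the merged exons and not on the length of the transcripts expressed. Slc7a3, the cationic amino acid transporter CAT3, had between 1 and 11 counts in a library over all 30, and Cbs, the first enzyme of transsulfuration, had between 0 and 13, so no test was made for either gene. Cbs had a mean of 0.0656 ± 0.0982 CPM in 2% HS, 0.324 ± 0.274 CPM in SD, 0.234 ± 0.139 CPM in MET, 0.179 ± 0.0697 CPM in LEU and 0.171 ± 0.127 CPM in MET+LEU. Slc7a3 had 0.493 ± 0.184 CPM, 0.304 ± 0.157 CPM, 0.366 ± 0.209 CPM, 0.222 ± 0.0957 CPM and 0.261 ± 0.191 CPM in the same order, and the libraries of every pair of groups overlapped for both genes.

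The first comparison asked how removal of serum changed these transcripts. In SD vs. 2% HS, 26 of the 36 genes fell and 3 rose, where 13.9% of all genes tested fell, 13.9% rose and 27.8% were called in either direction. Falls were found among the stress effectors (5 of 6), the synthesis enzymes (8 of 10), the transporters (6 of 8), the transcription factors (5 of 8) and the sensors and brakes of translation (2 of 4), and the genes that rose were Eif2ak3, Ppp1r15a and Slc1a4. The median log2 fold change of the 36 genes was -0.27, compared with 0.00 over all genes tested. For 18 of them all 6 SD libraries lay below all 6 libraries in 2% HS, compared with 7.42% of all genes tested. For 2 of the 36, Ppp1r15a and Slc1a4, all 6 lay above, as they did for 981 of all 15907 genes. Without SD replicate 2, 23 genes fell and 4 rose, with 27.2% of all genes called. Shmt2, Atf3 and Psph were the calls lost, and Atf5 was called higher.

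The next comparison asked what the combination of metformin and leucine did to serum-deprived myotubes. In MET+LEU vs. SD, 20 of the 36 genes fell and Nupr1 rose, where 7.8% of all genes tested fell, 10.6% rose and 18.4% were called in either direction. Falls were found in 7 of 8 transporters, 7 of 10 synthesis enzymes, 3 of 6 stress effectors and 3 of 8 transcription factors, and in 0 of the 4 sensors and brakes, for which edgeR gave 0 unadjusted p under 0.05 and DESeq2 called 0, while Ppp1r15a was called higher with a correction for GC content (adjusted p = 0.0249). The median log2 fold change was -0.20, compared with -0.01 over all genes. All 6 MET+LEU libraries lay below all 6 SD libraries for 10 genes, compared with 1.93% of all genes tested. Without MET+LEU replicate 6, 17 genes fell and Nupr1 rose, with 13.5% of all genes called, and Mthfd2, Cth and Trib3 were the calls lost. Without SD replicate 2, 18 genes fell and Nupr1 rose, with 14.7% of all genes called, and Cth and Trib3 were the calls lost. Both comparisons use the same SD libraries, so their changes are not independent of each other.

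Other ways of fitting moved calls of single genes. In SD vs. 2% HS, Psph, Cebpg and Eif2ak4 were each not called in at least 1 of 8 alternative fits, whereas Atf5 was called higher in 5 of the 8 and Phgdh lower in 2. In MET+LEU vs. SD, Mthfd2, Slc38a2, Trib3, Cth and Sesn2 were each not called in at least 1 of the 8, and Fgf21 and Gdf15 were called lower by DESeq2.

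**Figure D1:**
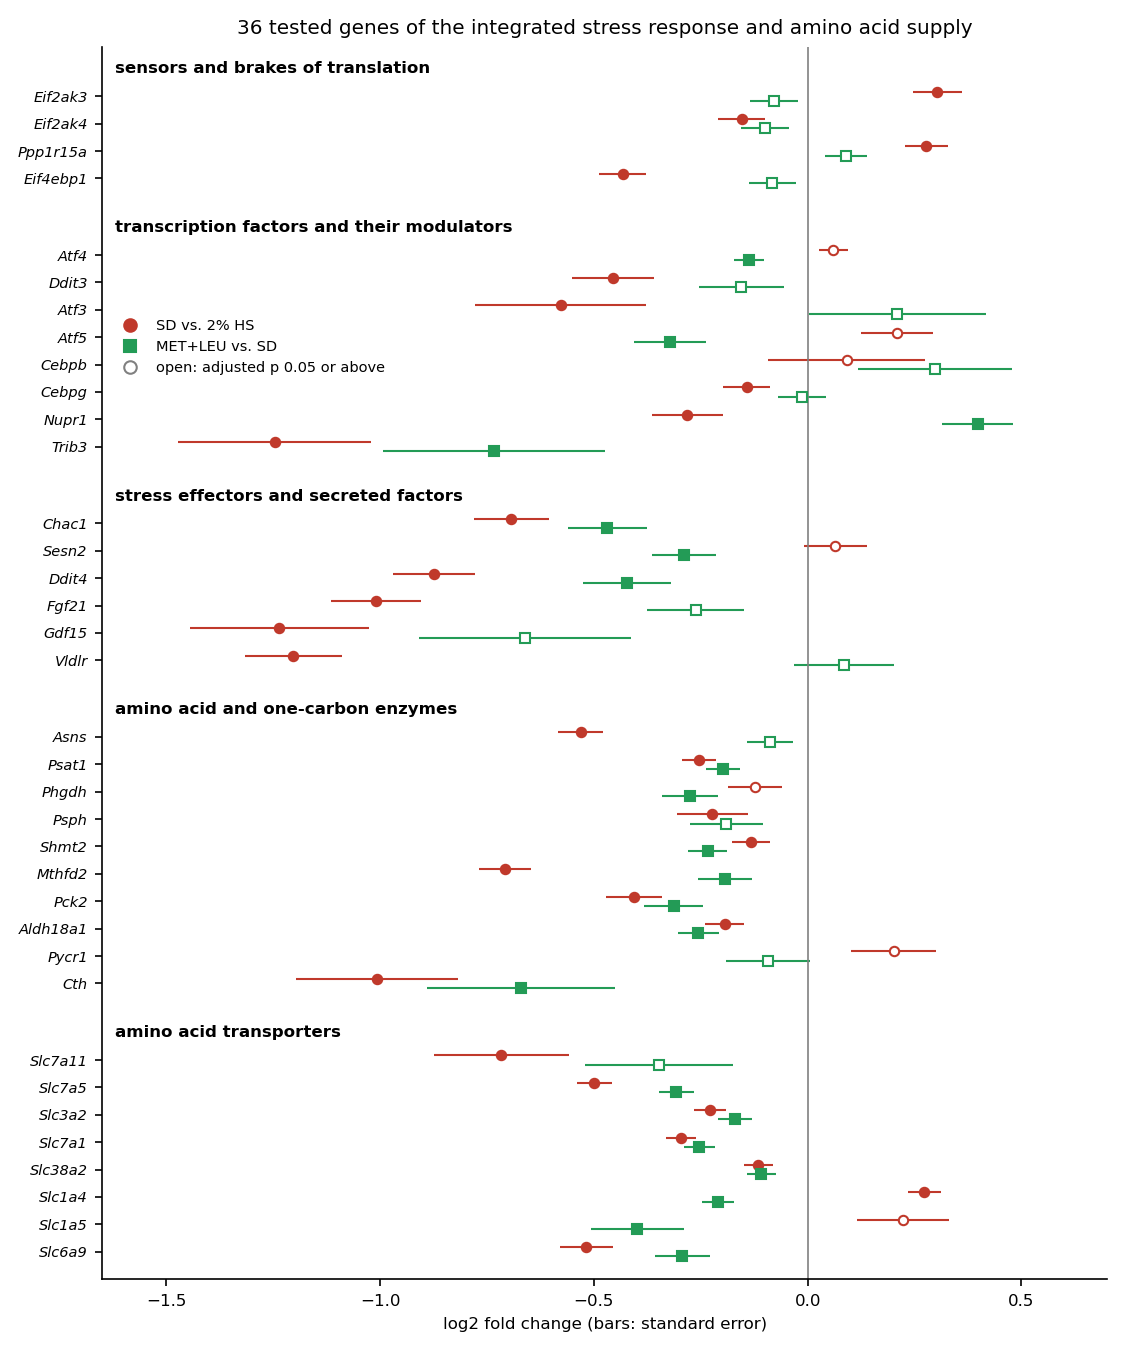
Log2 fold change (x axis) of each of the 36 tested genes (y axis, grouped by role) in SD vs. 2% HS (circles) and MET+LEU vs. SD (squares), with the standard error as bars and open symbols where the adjusted p was 0.05 or above. Most symbols lie left of 0 in both comparisons, the largest falls in SD vs. 2% HS are those of Trib3, Gdf15 and Vldlr, and Nupr1 is the filled square to the right of 0.

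Among the amino acid transporters, Slc7a5 changed with the smallest adjusted p of the 36 genes in MET+LEU vs. SD. Slc7a5 (ENSMUSG00000040010, chr8:121881150-121907694, minus strand) encodes the light chain of LAT1, which carries leucine into cells. It had 186, 195 and 203 CPM in 2% HS, 130.0, 136 and 153 CPM in SD and 100.0, 114 and 115 CPM in MET+LEU. The 3 groups did not overlap, with 2% HS highest and MET+LEU lowest. The log2 fold change was -0.50 (SE 0.04, adjusted p = 2.30e-14) in SD vs. 2% HS and -0.31 (SE 0.04, adjusted p = 6.12e-07) in MET+LEU vs. SD, and the latter was -0.28 (adjusted p = 1.76e-07) without MET+LEU replicate 6, its lowest library. Slc3a2, the heavy chain that brings LAT1 to the cell surface, had 109, 119.5 and 123 CPM in 2% HS, 90.3, 102 and 108 CPM in SD and 86.8, 90.7 and 92.3 CPM in MET+LEU. It fell by a smaller amount, with -0.23 (SE 0.04, adjusted p = 5.40e-06) and -0.17 (SE 0.04, adjusted p = 0.00135), and the MET+LEU libraries overlapped those of SD.

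Slc7a1 (ENSMUSG00000041313, chr5:148327410-148399904, minus strand), the carrier CAT1 for arginine and lysine, had 112, 118 and 121 CPM in 2% HS, 91.2, 95.3 and 101 CPM in SD and 74.9, 81.1 and 83.3 CPM in MET+LEU. Its groups did not overlap either, and it fell by 0.30 on the log2 scale in SD vs. 2% HS (SE 0.04, adjusted p = 3.21e-09) and by 0.25 in MET+LEU vs. SD (SE 0.04, adjusted p = 2.46e-06). Slc6a9, the glycine transporter GlyT1, had 37.2, 40.7 and 41.6 CPM in 2% HS, 22.9, 28.5 and 30.6 CPM in SD and 19.3, 23.2 and 24.8 CPM in MET+LEU, with log2 fold changes of -0.52 (SE 0.06, adjusted p = 2.78e-09) and -0.29 (SE 0.06, adjusted p = 0.000969). For Slc6a9, 27.8% of the exon bases are shared with Ccdc24 on the opposite strand, and the strand setting of the counting is not known, so its reads cannot be told apart from those of Ccdc24 there. Slc38a2, the sodium-coupled neutral amino acid carrier SNAT2, had 538, 554 and 572 CPM in 2% HS, 480.4, 523 and 536 CPM in SD and 453, 479 and 503 CPM in MET+LEU. All SD libraries were below all libraries in 2% HS, but the changes were small, with -0.12 (SE 0.03, adjusted p = 0.00731) and -0.11 (SE 0.03, adjusted p = 0.0189). The call of Slc38a2 in MET+LEU vs. SD was lost when only the groups compared were modelled (adjusted p = 0.133).

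Slc1a4 and Slc1a5, the neutral amino acid exchangers ASCT1 and ASCT2, did not fall with serum removal, and Slc1a4 rose. Slc1a4 (ENSMUSG00000020142, chr11:20302180-20332713, minus strand) had 71.7, 74.3 and 81.3 CPM in 2% HS, 88.9, 91.6 and 95.6 CPM in SD and 72, 79 and 84.2 CPM in MET+LEU. Every SD library was above every library of the other groups shown, and the log2 fold change was 0.27 (SE 0.04, adjusted p = 1.26e-07) in SD vs. 2% HS and -0.21 (SE 0.04, adjusted p = 9.87e-05) in MET+LEU vs. SD. The combination vs. 2% HS gave 0.06 (SE 0.04, adjusted p = 0.186). Slc1a5 had 4.41, 4.73 and 5.82 CPM in 2% HS, 5.36, 5.58 and 6.54 CPM in SD and 3.65, 4.43 and 4.97 CPM in MET+LEU, a log2 fold change of 0.22 (SE 0.11, adjusted p = 0.118) in SD vs. 2% HS, which did not pass, and of -0.40 (SE 0.11, adjusted p = 0.00731) in MET+LEU vs. SD, with no overlap between MET+LEU and SD. Slc7a11, the cystine and glutamate exchanger xCT, had 3.54, 4.17 and 5.26 CPM in 2% HS, 1.75, 2.61 and 3.64 CPM in SD and 1.6, 2.17 and 2.61 CPM in MET+LEU. It fell in SD vs. 2% HS (log2 fold change -0.72, SE 0.16, adjusted p = 0.000365), and its value with MET+LEU vs. SD was -0.35 (SE 0.17, adjusted p = 0.163), with overlapping libraries.

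Among the enzymes, Cth, Mthfd2 and Asns had the largest falls with serum removal. Mthfd2 (ENSMUSG00000005667, chr6:83305691-83325908, minus strand), a mitochondrial folate dehydrogenase, had 48.7, 55 and 61.1 CPM in 2% HS, 30.7, 33.9 and 35.4 CPM in SD and 24.3, 29.4 and 34.8 CPM in MET+LEU. Libraries in SD lay well below those in 2% HS (log2 fold change -0.71, SE 0.06, adjusted p = 1.88e-13), whereas 5 of 6 MET+LEU libraries lay below all SD libraries, with a log2 fold change of -0.19 (SE 0.06, adjusted p = 0.0258) that became -0.15 (adjusted p = 0.0818) without MET+LEU replicate 6. Shmt2, which feeds the same pathway with serine carbon, had 90.2, 95.8 and 99.5 CPM in 2% HS, 81.8, 87 and 94 CPM in SD and 63.3, 75.6 and 81 CPM in MET+LEU. It fell by 0.13 (SE 0.05, adjusted p = 0.0232) and by 0.23 (SE 0.05, adjusted p = 0.00025) on the log2 scale. SD overlapped 2% HS, and MET+LEU did not overlap SD. Without SD replicate 2 or SD replicate 3 the fall of Shmt2 in SD vs. 2% HS did not pass (adjusted p = 0.0637 and 0.0645).

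Asns (ENSMUSG00000029752, chr6:7675169-7693254, minus strand), asparagine synthetase, had 55, 60.1 and 65.3 CPM in 2% HS, 40.7, 41.1 and 45.1 CPM in SD and 36.5, 40.1 and 41.2 CPM in MET+LEU. The step was between 2% HS and SD, without overlap (log2 fold change -0.53, SE 0.05, adjusted p = 1.49e-11), and MET+LEU vs. SD gave -0.09 (SE 0.05, adjusted p = 0.27). Cth, cystathionine gamma-lyase, was low throughout, with 2.56, 3.91 and 4.92 CPM in 2% HS, 1.36, 1.92 and 2.52 CPM in SD and 0.891, 1.08 and 1.52 CPM in MET+LEU. It had the largest fold changes of the enzymes, -1.01 (SE 0.19, adjusted p = 3.76e-05) and -0.67 (SE 0.22, adjusted p = 0.0261). The latter did not pass without SD replicate 2 (adjusted p = 0.0822), MET+LEU replicate 4 (0.0512) or MET+LEU replicate 6 (0.0592). Pck2, the mitochondrial enzyme that makes phosphoenolpyruvate, had 31, 33.4 and 35.8 CPM in 2% HS, 23, 25.3 and 26.7 CPM in SD and 16.9, 20.1 and 23.1 CPM in MET+LEU. It fell in both comparisons, by 0.41 (SE 0.07, adjusted p = 2.45e-06) and by 0.31 (SE 0.07, adjusted p = 0.000874) on the log2 scale.

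Serine synthesis from glycolysis runs through Phgdh, Psat1 and Psph. Psat1 (ENSMUSG00000024640, chr19:15904678-15947337, minus strand) had 92.3, 95.7 and 102 CPM in 2% HS, 77.2, 80.1 and 86.1 CPM in SD and 65.8, 70.2 and 75.4 CPM in MET+LEU, and no group overlapped another. Its log2 fold changes were -0.25 (SE 0.04, adjusted p = 9.75e-07) and -0.20 (SE 0.04, adjusted p = 0.000338). Phgdh, the first enzyme, had 56.4, 66.5 and 76.3 CPM in 2% HS, 49.9, 59.7 and 73 CPM in SD and 43.7, 51.4 and 54.5 CPM in MET+LEU. Serum removal left it at -0.12 (SE 0.06, adjusted p = 0.152) with wide overlap, and MET+LEU vs. SD gave -0.28 (SE 0.06, adjusted p = 0.0023). Psph, the last enzyme, had 13.5, 14.9 and 16.5 CPM in 2% HS and 10.6, 13 and 15.4 CPM in SD and fell by 0.22 on the log2 scale (SE 0.08, adjusted p = 0.0366). That call was lost in 6 of 30 fits that left out 1 library, with the highest adjusted p (0.119) without SD replicate 4, and 10.44% of the exon bases of Psph are shared with Cct6a on the opposite strand.

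Proline synthesis gave unlike results for its members. Aldh18a1 (ENSMUSG00000025007, chr19:40550257-40588463, minus strand), which makes the first intermediate from glutamate, had 56.2, 59.1 and 63.8 CPM in 2% HS, 49.3, 51.4 and 57.3 CPM in SD and 40.2, 43.3 and 47.5 CPM in MET+LEU. It fell in SD vs. 2% HS (log2 fold change -0.19, SE 0.05, adjusted p = 0.000917) and again in MET+LEU vs. SD (log2 fold change -0.26, SE 0.05, adjusted p = 0.000114), where the libraries did not overlap. Pycr1, the last step, had a mean of 8.79 ± 1.62 CPM in 2% HS, 10.1 ± 0.781 CPM in SD, 8.57 ± 0.283 CPM in MET, 9.07 ± 0.764 CPM in LEU and 9.38 ± 1.33 CPM in MET+LEU (n = 6 each). No comparison of Pycr1 passed the test, and SD vs. 2% HS gave 0.20 (SE 0.10, adjusted p = 0.13).

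The stress effectors had the largest median change of the 5 roles with serum removal, a log2 fold change of -0.94. Chac1 (ENSMUSG00000027313, chr2:119351229-119354381, plus strand), which degrades glutathione, had 28.7, 33.9 and 34.8 CPM in 2% HS, 16.8, 19.3 and 24.2 CPM in SD, 14.7, 15.1 and 15.6 CPM in MET and 11.6, 15 and 17.7 CPM in MET+LEU. SD lay below 2% HS without overlap (log2 fold change -0.69, SE 0.09, adjusted p = 2.43e-08), and 5 of 6 MET+LEU libraries lay below all of SD (log2 fold change -0.47, SE 0.09, adjusted p = 0.000379). Fgf21, a secreted hormone that muscle releases under mitochondrial and nutrient stress, had 33.2, 40.5 and 43.6 CPM in 2% HS and 17, 19.3 and 23 CPM in SD and fell by 50.3% (log2 fold change -1.01, SE 0.10, adjusted p = 3.22e-09). Its range in MET+LEU was 10.8 to 20.2 CPM, which overlapped SD, with a log2 fold change of -0.26 (SE 0.11, adjusted p = 0.104). Gdf15, another secreted stress hormone, had 3.87, 5.73 and 6.96 CPM in 2% HS and 1.5, 2.2 and 3.39 CPM in SD. It fell by 57.5% (log2 fold change -1.24, SE 0.21, adjusted p = 9.42e-06) with no overlap, and MET+LEU vs. SD gave -0.66 (SE 0.25, adjusted p = 0.0572).

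Ddit4 (REDD1), which restrains mTORC1, had 39.1, 44.2 and 48.5 CPM in 2% HS, 19.2, 24.3 and 26.6 CPM in SD and 12.3, 18.6 and 22.4 CPM in MET+LEU. It fell with serum removal (log2 fold change -0.87, SE 0.10, adjusted p = 7.80e-09) and further with MET+LEU (log2 fold change -0.42, SE 0.10, adjusted p = 0.00403), the latter with overlap of 3 of 6 libraries. Vldlr (ENSMUSG00000024924, chr19:27216484-27254231, plus strand), a receptor for triglyceride-rich lipoproteins, had 119.9, 136 and 151 CPM in 2% HS and 45.4, 59.8 and 73.3 CPM in SD. It fell by 56.6% (log2 fold change -1.20, SE 0.11, adjusted p = 3.03e-09), and MET+LEU libraries, between 53 and 71 CPM, lay inside the range of SD (log2 fold change 0.08, SE 0.12, adjusted p = 0.674). Sesn2, a leucine-binding inhibitor of mTORC1 signalling, was the effector that did not pass with serum removal, with 20.9, 23.5 and 26 CPM in 2% HS, 22.7, 23.6 and 28.8 CPM in SD and 15.4, 20.9 and 22.2 CPM in MET+LEU. Its log2 fold change was 0.06 (SE 0.07, adjusted p = 0.56) in SD vs. 2% HS and -0.29 (SE 0.08, adjusted p = 0.00505) in MET+LEU vs. SD, where every MET+LEU library lay below every SD library. With the correction for GC content this call of Sesn2 was lost (log2 fold change -0.19, adjusted p = 0.0566).

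Atf4 itself changed little at the mRNA level. Atf4 (ENSMUSG00000042406, chr15:80255184-80257541, plus strand) had 253, 268 and 277 CPM in 2% HS, 270.3, 277 and 294 CPM in SD, 263, 284 and 294 CPM in MET, 263, 273 and 283 CPM in LEU and 237, 255 and 269 CPM in MET+LEU. SD overlapped 2% HS, with a log2 fold change of 0.06 (SE 0.03, adjusted p = 0.202). All MET+LEU libraries were below all SD libraries, with -0.14 (SE 0.03, adjusted p = 0.00356), a fall of 9.1%. Atf5, a related factor of the mitochondrial stress response, had 87.4, 101 and 113 CPM in 2% HS, 104, 115 and 129 CPM in SD and 69.1, 96.7 and 102 CPM in MET+LEU. It gave 0.21 (SE 0.08, adjusted p = 0.0656) in SD vs. 2% HS, which did not pass but was called without SD replicate 2 (adjusted p = 0.046), without MET+LEU replicate 6 (adjusted p = 0.0278) and when only the groups compared were modelled (adjusted p = 0.00688). Atf5 fell in MET+LEU vs. SD (log2 fold change -0.32, SE 0.08, adjusted p = 0.00797). Without MET+LEU replicate 6 the latter was -0.26 (adjusted p = 0.0194).

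Trib3 (ENSMUSG00000032715, chr2:152337422-152344032, minus strand), a pseudokinase that binds ATF4 and restrains it, had 16.6, 18.5 and 22.4 CPM in 2% HS, 4.16, 7.74 and 13.5 CPM in SD and 2.35, 4.69 and 7.62 CPM in MET+LEU. It showed the largest fold change with serum removal (log2 fold change -1.25, SE 0.23, adjusted p = 0.000105), without overlap, and it varied widely among SD libraries. Its value in MET+LEU vs. SD was -0.73 (SE 0.26, adjusted p = 0.0488), a call that 20 of 30 fits leaving out 1 library did not make, with the highest adjusted p of 0.159 without SD replicate 2. Ddit3 (CHOP), a factor of lasting stress, had 11.1, 13 and 16.5 CPM in 2% HS and 8.55, 9.77 and 11.2 CPM in SD and fell (log2 fold change -0.46, SE 0.10, adjusted p = 0.000196). MET+LEU vs. SD gave -0.15 (SE 0.10, adjusted p = 0.302) for Ddit3. Atf3, an early stress factor, had 2.54, 2.86 and 3.25 CPM in 2% HS and 1.2, 1.75 and 3.21 CPM in SD, with -0.58 (SE 0.20, adjusted p = 0.0251), and its call was lost without 2% HS replicate 2 (adjusted p = 0.0511), SD replicate 1 (0.0895), SD replicate 2 (0.0519) or SD replicate 5 (0.0672).

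Nupr1 (ENSMUSG00000030717, chr7:126623249-126630861, minus strand), a small stress-induced regulator of transcription, was the member that rose with MET+LEU. It had 39.9, 41.5 and 45.2 CPM in 2% HS, 33.7, 34.4 and 34.8 CPM in SD, 33.1, 35.6 and 42.9 CPM in MET, 36.2, 37.8 and 44.2 CPM in LEU and 39.2, 42.1 and 63.8 CPM in MET+LEU. The SD libraries lay within a narrow range below all of 2% HS (log2 fold change -0.28, SE 0.08, adjusted p = 0.00941), and every MET+LEU library was above every SD library (log2 fold change 0.40, SE 0.08, adjusted p = 0.000804). Its highest MET+LEU library was replicate 6, and without it the log2 fold change was 0.28 (adjusted p = 0.000377). The combination vs. 2% HS left it at 0.12 (SE 0.08, adjusted p = 0.265). The C/EBP partners of ATF4 moved little or varied much. Cebpg had 35.4, 39.9 and 44 CPM in 2% HS and 33.4, 36.2 and 37.9 CPM in SD, with -0.14 (SE 0.06, adjusted p = 0.0481), a call that 12 of 30 fits leaving out 1 library did not make. Cebpb had means of 41.7 ± 9.47 CPM in 2% HS, 44.4 ± 11.7 CPM in SD, 58.9 ± 16.1 CPM in MET, 57.3 ± 5.19 CPM in LEU and 54.3 ± 8.81 CPM in MET+LEU, and no comparison passed in the main fit. In MET+LEU vs. 2% HS it gave 0.39 (adjusted p = 0.086). It was called there in 2 of 8 alternative fits and in 1 of 30 that left out 1 library. For Cebpb, 20.74% of the exon bases are shared with Tmem189 on the opposite strand.

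The sensors and brakes of translation went in both directions with serum removal. Eif2ak3 (ENSMUSG00000031668, chr6:70844515-70905245, plus strand), which encodes PERK, had 21.9, 24.7 and 27.4 CPM in 2% HS and 27.2, 30.9 and 33 CPM in SD and rose (log2 fold change 0.30, SE 0.06, adjusted p = 3.87e-05). Ppp1r15a, which encodes GADD34, the subunit that directs a phosphatase to eIF2, had 29.6, 30.7 and 33.3 CPM in 2% HS and 34.8, 38 and 40.7 CPM in SD and rose without overlap (log2 fold change 0.28, SE 0.05, adjusted p = 2.23e-05). Neither passed in MET+LEU vs. SD (-0.08, adjusted p = 0.365, and 0.09, adjusted p = 0.214). Eif4ebp1, which blocks cap-dependent initiation until mTORC1 phosphorylates its protein, had 87.4, 93.3 and 100.3 CPM in 2% HS and 60.9, 68.7 and 77.7 CPM in SD. It fell without overlap (log2 fold change -0.43, SE 0.05, adjusted p = 1.70e-08). Eif2ak4, which encodes GCN2, had 32.9, 35.3 and 37.2 CPM in 2% HS and 29.6, 31.3 and 34.7 CPM in SD and fell by 0.15 on the log2 scale (SE 0.06, adjusted p = 0.0304), a call lost in 5 of 30 fits that left out 1 library.

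**Figure D2:**
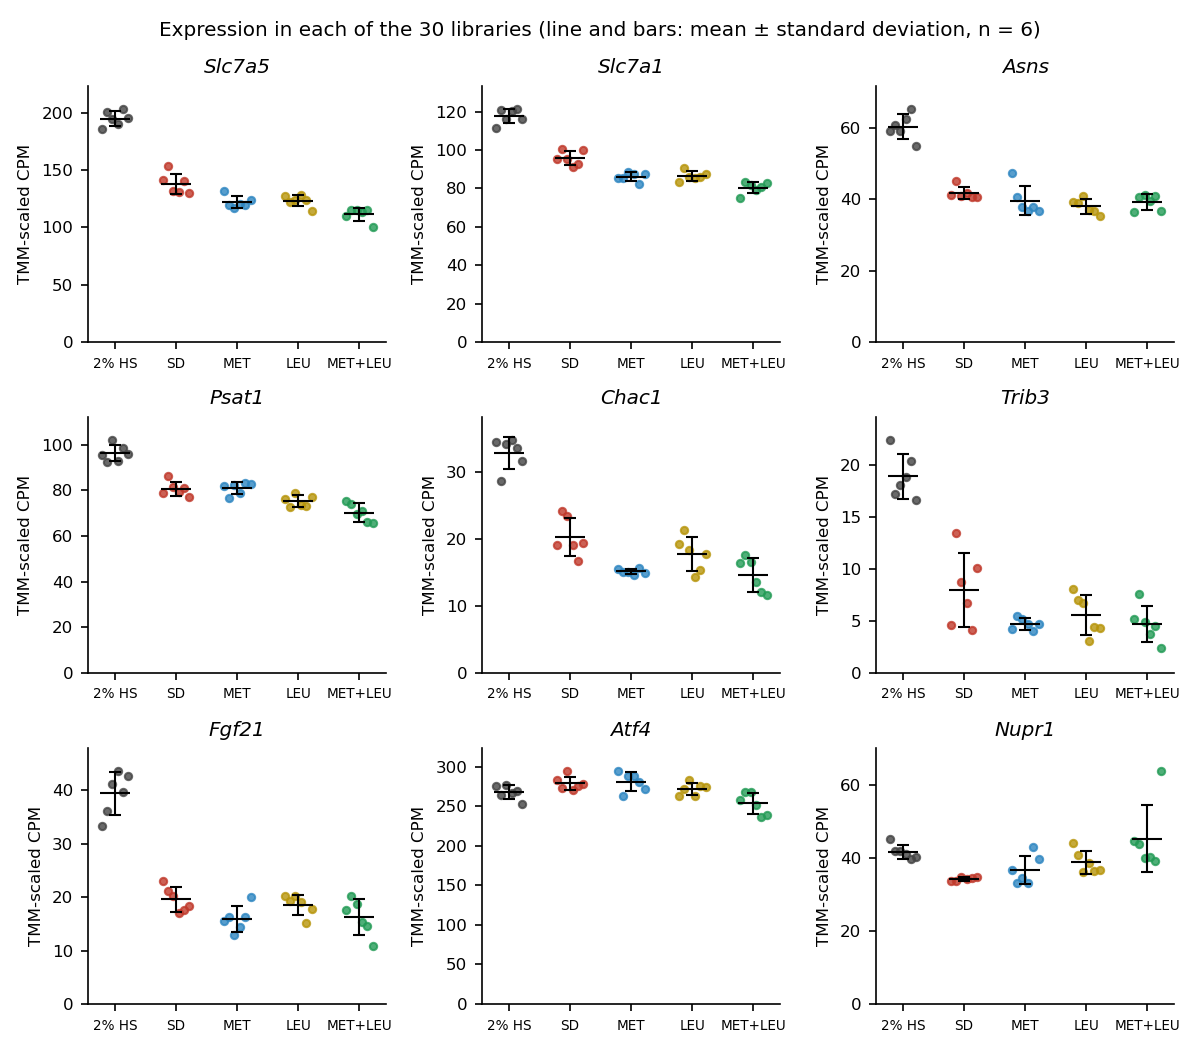
CPM (y axis, from 0) of 9 genes in each library (points) by group (x axis), with the mean as a line and the standard deviation of 6 libraries as bars. Slc7a5 and Slc7a1 are highest in 2% HS and lowest in MET+LEU, Atf4 lies between 237 and 294 CPM in every library, and 1 MET+LEU library of Nupr1 reaches 63.8 CPM.

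Compared with SD, the single treatments changed few of these transcripts past the threshold. In MET vs. SD, Chac1 and Slc7a5 fell, 2 of 36 genes, where 0.157% of all genes were called, and 17 of the 36 had an unadjusted p under 0.05, compared with 1597 of all 15907. Without SD replicate 2, 0 of the 36 and 0.0312% of all genes were called, and without MET+LEU replicate 6, 5 of the 36 and 0.996% of all genes. Chac1 in MET lay below every SD library, with a log2 fold change of -0.43 (SE 0.09, adjusted p = 0.035). Slc7a5 had 117, 120.0 and 132 CPM in MET and 114, 124 and 128 CPM in LEU, with -0.18 (SE 0.04, adjusted p = 0.0407) in MET vs. SD. Neither call held without SD replicate 2 (adjusted p = 0.158 for Chac1 and 0.215 for Slc7a5). The call of Chac1 held in 23 of 30 fits that left out 1 library and that of Slc7a5 in 12.

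In LEU vs. SD, 3 transporters fell, where 0.553% of all genes were called, and 19 of the 36 genes had an unadjusted p under 0.05, compared with 1588 of all 15907. Of the 36, 1 was called without SD replicate 2, with 0.343% of all genes, and 4 without MET+LEU replicate 6, with 1.67% of all genes. Slc1a4 had 78.2, 80.6 and 81.5 CPM in LEU, below every SD library (log2 fold change -0.19, SE 0.04, adjusted p = 0.00489), and the call held in 30 of 30 fits that left out 1 library. Slc7a1 had 83.3, 85.9 and 90.8 CPM in LEU, also below every SD library (log2 fold change -0.15, SE 0.04, adjusted p = 0.036), and Slc7a5 gave -0.16 (SE 0.04, adjusted p = 0.0441). Without SD replicate 2 these were no longer called (adjusted p = 0.119 for Slc7a1 and 0.173 for Slc7a5). For Slc7a1 the call held in 23 of 30 such fits and for Slc7a5 in 9.

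The combination was also set against each single treatment. In MET+LEU vs. MET, where 8.69% of all genes were called, Atf4, Atf5, Psat1 and Slc7a5 fell and Nupr1 rose. Psat1 gave -0.20 (SE 0.04, adjusted p = 0.00102) with no overlap, and Atf4 gave -0.15 (SE 0.03, adjusted p = 0.00511). Without MET+LEU replicate 6, Psat1 and Atf4 were the 2 genes still called, and 4.52% of all genes were. Slc7a1 did not pass in the main fit vs. MET (adjusted p = 0.077) or vs. LEU (adjusted p = 0.072). It was called lower in 10 of 30 fits that left out 1 library in each comparison. Among them was the fit without SD replicate 2 (adjusted p = 0.048 vs. MET and 0.0454 vs. LEU). Of the 8 other alternatives, 4 called it vs. MET and 3 vs. LEU. Against LEU alone, where 6.28% of all genes were called, Slc7a5 (log2 fold change -0.15, SE 0.04, adjusted p = 0.0243) and Slc3a2 (log2 fold change -0.13, SE 0.04, adjusted p = 0.0329) fell. Without MET+LEU replicate 6, edgeR called 0 of the 36 genes there (adjusted p = 0.0559 for Slc7a5 and 0.0516 for Slc3a2), while 2.85% of all genes were called. The interaction of MET and LEU, which tests whether the change with both differs from the sum of the single changes on the log2 scale, called 0 of the 36 genes with edgeR, and 4 had an unadjusted p under 0.05, compared with 1389 of all 15907. DESeq2 gave an adjusted p for 2 of the 36 there and called 0. Over all genes, 0.0503% were called.

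Set against 2% HS, MET+LEU left 26 of the 36 genes lower and 2 higher (Eif2ak3 and Ppp1r15a), where 20.3% of all genes were lower, 22.1% higher and 42.3% called in either direction. The median log2 fold change was -0.43. Trib3 gave -1.98 (SE 0.24, adjusted p = 1.95e-07), Gdf15 -1.90 (SE 0.22, adjusted p = 4.50e-09) and Cth -1.68 (SE 0.20, adjusted p = 2.92e-09). For Slc7a5 it was -0.81 (SE 0.04, adjusted p = 1.16e-21), and for Chac1 -1.16 (SE 0.09, adjusted p = 7.15e-14). Of the 26 genes that fell in SD vs. 2% HS, Nupr1 and Atf3 did not pass in MET+LEU vs. 2% HS (0.12, adjusted p = 0.265, and -0.37, adjusted p = 0.129).

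**Figure D3:**
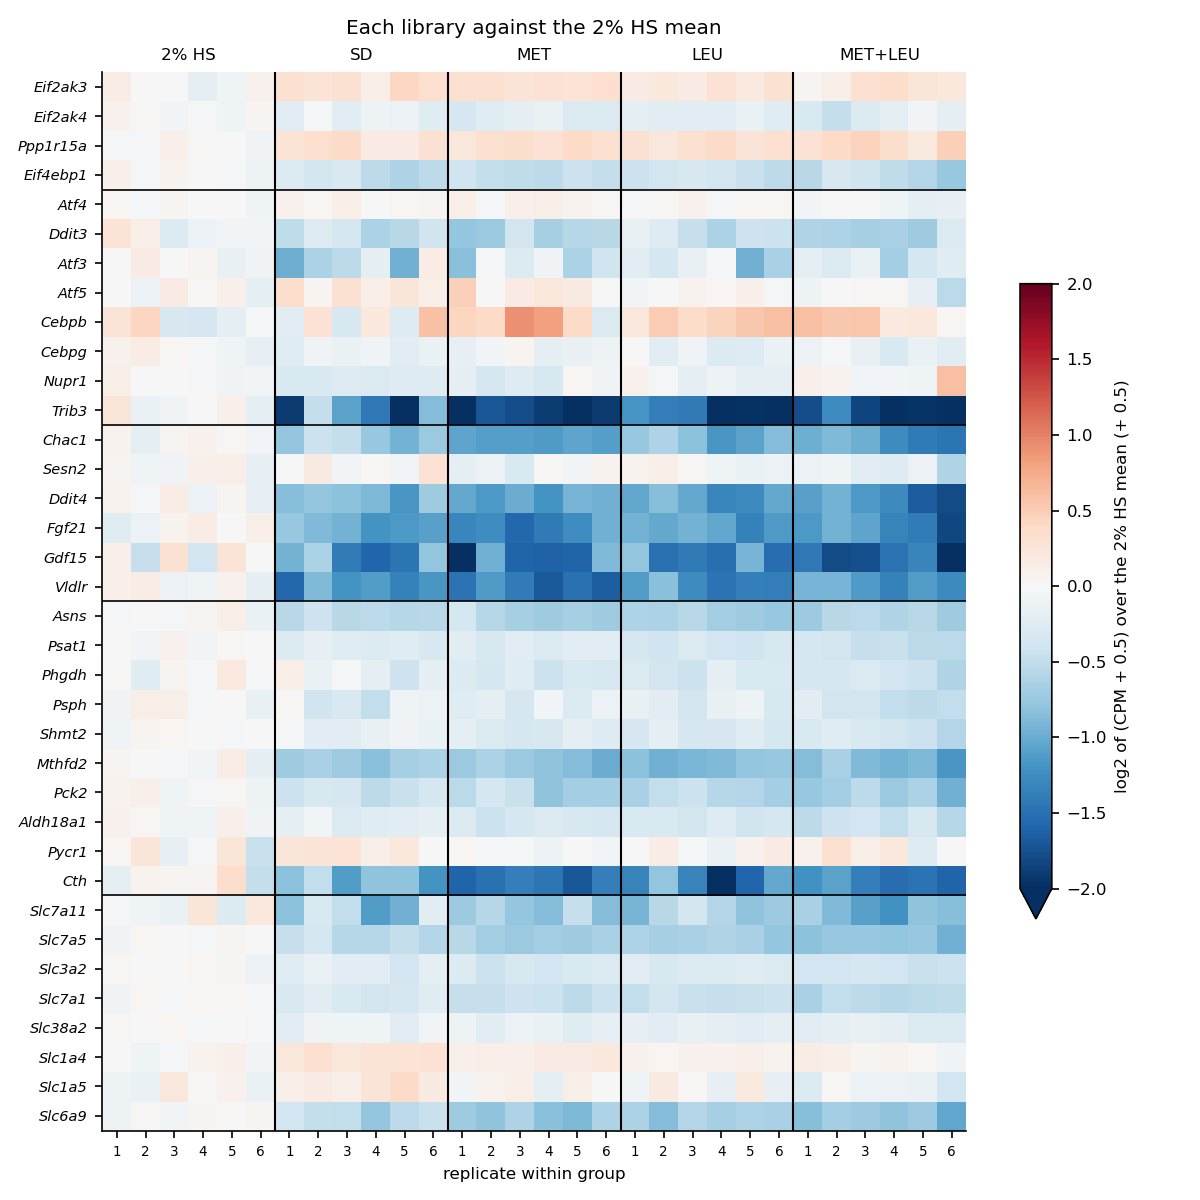
Log2 ratio of each library's CPM to the mean of 2% HS (colour, with 0.5 CPM added to both) for the 36 genes (rows, in the order of their roles) and 30 libraries (columns, by group and replicate), with values under -2 drawn in the darkest blue. Trib3, Ddit4, Fgf21, Gdf15, Vldlr and Cth are blue in all libraries without serum, and Eif2ak3 and Ppp1r15a are light red in nearly all of them.

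Lists of genes around the pathway were counted in the same comparisons. Among 16 genes of the unfolded protein response outside the PERK arm, 11 rose and 2 fell in SD vs. 2% HS, with a median log2 fold change of 0.26. Of the 16, 81.25% were called, where 27.8% of all genes were. Sdf2l1 (log2 fold change 0.73, SE 0.14, adjusted p = 7.32e-05), Calr (log2 fold change 0.55, SE 0.04, adjusted p = 7.04e-16) and Manf (log2 fold change 0.42, SE 0.04, adjusted p = 8.24e-11), which encode chaperones and a secreted factor of the endoplasmic reticulum, rose the most. With MET+LEU vs. SD 2 of the 16 rose and 2 fell, or 25% called where 18.4% of all genes were. The chaperones Dnajb11 (log2 fold change 0.30, SE 0.05, adjusted p = 3.72e-05) and Hsp90b1 (log2 fold change 0.19, SE 0.04, adjusted p = 0.000424) rose. The genes that fell, which like those of the other short counts around the pathway were named after their values were seen, were Atf6 (-0.33 on the log2 scale), a sensor of misfolded protein, and Herpud1 (-0.31) with serum removal, and Herpud1 (-0.10) and Hyou1 (-0.12) with MET+LEU. Of 18 genes that act before Atf4, 3 rose and 0 fell in SD vs. 2% HS, or 16.7% called where 27.8% of all genes were. The rises were led by Dnajc3 (log2 fold change 0.28, SE 0.04, adjusted p = 4.86e-07), which inhibits PERK, with Nck1 and Ppp1cc after it. In MET+LEU vs. SD 6 of the 18 rose and 1 fell, or 38.9% called where 18.4% of all genes were. Eif2s2 (log2 fold change 0.45, SE 0.06, adjusted p = 1.51e-05), a subunit of eIF2, and Eif2ak2 (log2 fold change 0.37, SE 0.07, adjusted p = 0.000278), the kinase PKR, rose the most, ahead of the adaptor Nck1 (0.23). The 1 gene that fell was Gcn1, the partner of GCN2 (log2 fold change -0.22, SE 0.05, adjusted p = 0.000979).

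Other enzymes and transporters of amino acids were counted in the same way. Of 29 further amino acid and one-carbon enzymes, 6 rose and 7 fell in SD vs. 2% HS (44.8% called, compared with 27.8% of all genes). In MET+LEU vs. SD 3 rose and 4 fell (24.1% called, compared with 18.4% of all genes). Serum removal lowered Gpt2 (log2 fold change -0.79, SE 0.05, adjusted p = 1.85e-16), the mitochondrial alanine aminotransferase, and Aldh1l2 (log2 fold change -0.72, SE 0.07, adjusted p = 1.43e-10), of mitochondrial folate metabolism, and raised Ass1 (log2 fold change 0.66, SE 0.06, adjusted p = 2.00e-12), which makes arginine's precursor. With MET+LEU Gcsh, Gclc and Glul rose, and Aldh1l2, Mthfd1l and Bcat1 were among those that fell. Of 20 further transporters that passed the filter, 5 rose and 4 fell in SD vs. 2% HS, or 45% called. In MET+LEU vs. SD 1 rose and 8 fell, also 45% called, with a median log2 fold change of -0.10. Slc1a3, a glutamate carrier, had the largest rise with serum removal (log2 fold change 2.14, SE 0.15, adjusted p = 5.25e-12), ahead of Slc7a2, a carrier of arginine (log2 fold change 0.41, SE 0.04, adjusted p = 2.92e-12), and Slc38a10, Slc7a6 and Slc25a12 rose less. Those that fell were Slc38a1, Slc38a6, Slc6a6 and Slc43a2. With MET+LEU Slc7a2 rose (0.13 on the log2 scale), and the mitochondrial glutamate carrier Slc25a22 (log2 fold change -0.35, SE 0.10, adjusted p = 0.00851) and the lysosomal transporter Slc15a4 (log2 fold change -0.33, SE 0.07, adjusted p = 0.000438) fell the most.

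**Figure D4:**
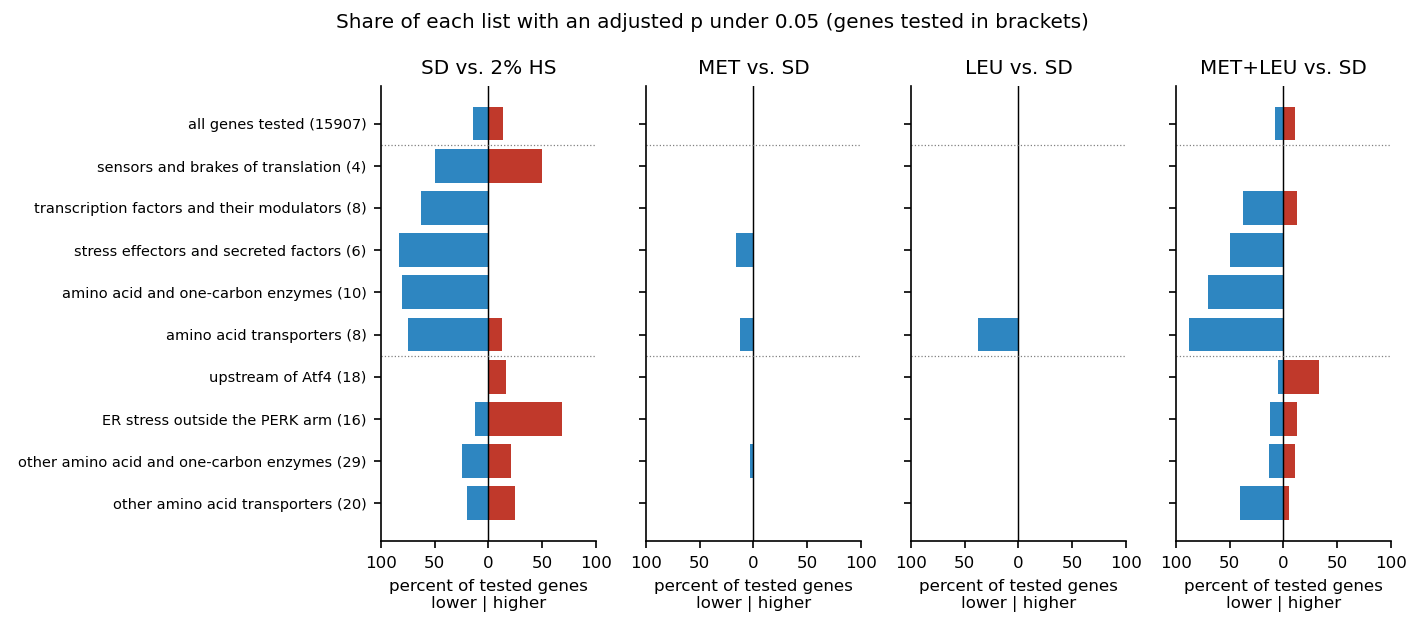
Percent of the tested genes (x axis, lower to the left and higher to the right of 0) with an adjusted p under 0.05 in each list (y axis, number of genes tested in brackets) for 4 comparisons, with all 15907 genes in the top row. The 5 roles of the set lie mostly to the left in SD vs. 2% HS and MET+LEU vs. SD, whereas 11 of 16 genes of the endoplasmic reticulum stress list lie to the right in SD vs. 2% HS.

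Markers of other cells were compared between the same groups. The summed level of 7 markers of cycling or undifferentiated myoblasts was 388 to 418 CPM in 2% HS, 354.5 to 396 CPM in SD and 308 to 335.5 CPM in MET+LEU, and none was at 0. Pax7 contributed the most counts to these sums. In SD vs. 2% HS the log2 fold change was above 0 for 5 of the 7, with a median of 0.05, and 1 was called higher and 1 lower. That is 28.6% called, near the 27.8% of all genes. Of the 7, the cell cycle genes Ccnb1, Cdk1, Mki67 and Top2a fell in MET+LEU vs. SD, and the rest did not pass. There 57.1% were called where 18.4% of all genes were. The myotube markers summed to between 39370 and 42290 CPM in 2% HS, 32690 and 35030 CPM in SD and 31420 and 39630 CPM in MET+LEU, sums to which Ttn contributed the most counts. Of the 10, Ckm, Actn2 and Ttn fell and Des rose in SD vs. 2% HS, or 40% called where 27.8% of all genes were. In MET+LEU vs. SD Tnnt3, Myh3 and Mef2c rose, or 30% called where 18.4% of all genes were. The part of these shifts in the changes described was not tested. Of 4 macrophage markers Cd68 passed the filter, with a summed level of at most 4.435 CPM in any library, and 0 of 4 endothelial and 0 of 4 adipocyte markers did.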

How the data were processed

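RNA was taken from C2C12 myotubes in 5 groups of 6 replicates, grouped by the sample labels. Stranded libraries from ribosomal RNA-depleted total RNA were sequenced with 150 x 150 bp reads. The authors deposited raw counts per gene, and their processing notes name cutadapt 1.16, STAR 2.7.6a, featureCounts 1.6.3, DESeq2 1.30.1 and the build GRCm38. The strand setting, the annotation release and the handling of reads that map to several genes are not given in the sources used here, so reads in exons shared by overlapping genes (10 of the 38 genes, 3 of them over 10% of their exon bases) cannot be told apart. Symbols, positions and exon lengths came from GENCODE M21, which held 55227 of 55487 identifiers, and the other 260 held 0.00434% of the counts.

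Counts were analysed with edgeR 4.0.16 in R 4.3.3, with filterByExpr (minimum count 10, minimum total count 15), TMM scaling, a mean for each group over all 30 libraries, a robust quasi-likelihood fit and Benjamini-Hochberg adjustment over 15907 genes. The test was tested on simulated data. The biological coefficient of variation was 0.0709. Standard errors are absolute log2 changes divided by the square root of F. No 2 libraries of a group agreed within sampling noise (lowest chi-square per gene 2.33). The alternatives were DESeq2's size factors, upper-quartile scaling, genes with more than 5 counts in total, the replicate block, only the groups compared, limma-voom (limma 3.58.1) with quality weights, DESeq2 1.42.0 (Wald test), each library left out, and a correction for GC content that was chosen after seeing the data. The genes of the set and all lists were chosen with earlier results of these data known. All 38 genes are named; those that passed in SD vs. 2% HS or MET+LEU vs. SD, and Atf4, are given with their lowest, median and highest library, and of the surrounding lists the rule named at most the 3 called genes with the largest absolute change per comparison, and the others were named after their values were seen.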

Additional observations from a re-analysis of the deposited data

Results flagged for a closer look

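In a group of 6 libraries, a highest or lowest library was marked when its gap to the nearest other library took up an unusually large share of the range of the group (Dixon's test at the 95% level). Of 180 groups of libraries (36 genes in 5 groups), 8 were marked, and chance marks about 1 group in 20. MET+LEU replicate 6 accounted for 4 of them. It was the lowest of its group for Slc7a5 (100.0 CPM, next 110.0) and Atf5 (69.1 CPM, next 90.2), and the highest for Nupr1 (63.8 CPM, next 44.8) and Ddit3 (10.9 CPM, next 8.80). Slc7a5, Atf5 and Nupr1 kept their calls in MET+LEU vs. SD without it, and in MET+LEU vs. MET none of these 3 passed without it (adjusted p = 0.0817 for Slc7a5, 0.0597 for Atf5 and 0.0544 for Nupr1). Asns was highest in SD replicate 2 (45.1 CPM, next 41.9) and in MET replicate 1 (47.5 CPM, next 40.7). Slc6a9 was lowest in SD replicate 4 (22.9 CPM, next 27.8) and in LEU replicate 2 (21.8 CPM, next 25.1). The part of library quality in these values was not tested.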

How the results depend on the processing

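In the alternatives run, 0 of the log2 fold changes of called genes changed sign. Over the 90 calls of single genes, 3272 recomputed values passed the threshold and 148 did not. Each call was refitted without each of the 30 libraries in turn, and most of these belonged to groups outside the comparison. Leaving out such a library hardly changes the means compared and acts mainly through scaling and the shared estimate of the spread. Signs could therefore hardly change in those fits, and the counts out of 30 include them. With single libraries left out, the count ranged from 25 to 30 in SD vs. 2% HS, 0 to 5 in MET vs. SD, 1 to 4 in LEU vs. SD, 18 to 23 in MET+LEU vs. SD, 28 to 30 in MET+LEU vs. 2% HS, 2 to 7 in MET+LEU vs. MET, 0 to 5 in MET+LEU vs. LEU and 0 to 0 for the interaction. In MET vs. SD the count of 2 (0.157% of all genes called) became 1 (0.199%) when only the groups compared were modelled and 4 (1.46%) with DESeq2's Wald test. In LEU vs. SD the count of 3 (0.553%) became 1 (0.3%) with all genes of more than 5 counts. The count of 5 in MET+LEU vs. MET (8.69%) became 2 (3.94%) with only the groups compared. That of 2 in MET+LEU vs. LEU (6.28%) became 4 (4.86%) with upper-quartile scaling, 5 (10.4%) with DESeq2's Wald test and 1 (3.67%) with the correction for GC content. DESeq2's shares are of the genes to which it gave an adjusted p. The cause was not tested. Over all genes, the count in MET+LEU vs. SD was 1422 with only the groups compared and 1857 with limma-voom, against 2931, and upper-quartile scaling turned the split of 1690 higher and 1241 lower into 1446 and 1556, with the same 1 higher and 20 lower counted among the 36.

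Libraries with the same replicate number had deviations that correlated only weakly. The mean correlation of their deviations from the group means was 0.0157 over 60 pairs, compared with -0.00314 for pairs with different numbers. Of the 60 pairs, 2 exceeded 0.1. With 6 numbers to choose from, 11 of 30 libraries correlated best with their own number. Whether the numbers mark a weak shared effect was not tested. With the replicate number as a block, 30 of the 36 genes were called in SD vs. 2% HS (28.3% of all genes) and 29 in MET+LEU vs. 2% HS (42.9%). The block left 3 for MET (0.327%) and 3 for LEU alone (0.641%), each vs. SD, and 21 for their combination (19.6%). It gave 6 for the combination vs. MET (9.95%), 4 for the combination vs. LEU (6.93%) and 0 for the interaction (0.107%).

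The single-treatment counts changed when single libraries were left out, although Slc1a4 in LEU vs. SD was called in 30 of 30 such fits. In MET vs. SD 0 genes were called without SD replicate 2 or MET replicate 3, 4, 5 or 6, 4 without SD replicate 4 and 5 without MET+LEU replicate 6, and 1 without each of 2% HS replicates 3, 4 and 6, SD replicates 1, 3 and 5, MET replicates 1 and 2, LEU replicates 1 to 5 and MET+LEU replicate 4. In LEU vs. SD 1 gene was called without SD replicate 2 or LEU replicate 1, 3, 4, 5 or 6. For MET+LEU vs. MET 3 were called without MET replicate 1 and 2 without MET replicate 4 or MET+LEU replicate 6. For MET+LEU vs. LEU 0 were called without MET+LEU replicate 6, 1 without LEU replicate 5, 4 without SD replicate 1, 3, 4 or 5 or MET+LEU replicate 3, and 5 without MET+LEU replicate 2. The share of all genes called moved as well. In MET vs. SD it went from 0.157% to 0.0312% without SD replicate 2 and to 0.996% without MET+LEU replicate 6. Without the latter it fell from 8.69% to 4.52% in MET+LEU vs. MET and from 6.28% to 2.85% in MET+LEU vs. LEU. It was recorded for the fits without these libraries only.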
